A study of Arabidopsis thaliana with 6 samples.

Results

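The 9 genes described here encode the enzymes that make polyamines in Arabidopsis thaliana, from arginine decarboxylase to thermospermine synthase. They were taken by locus identifier from the deposited tables, in which 23874 genes had reads in at least 1 library, and all 9 had a row. The group was drawn up around ACL5, the thermospermine synthase gene, which was selected on measured values of these libraries, taken here to be its gene reads and allele reads by stage and cross. Values of ACL5 are therefore given as a description, with no test. The other 8 were added as known enzymes of the same pathway, with earlier results of these data known. Their p-values are therefore not those of genes picked without sight of the data.

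Poly(A) RNA came from embryos that were all hybrids of Col-0 and Cvi-0, inbred accessions of the species. Embryos were dissected by hand at 3 times after pollination: 40 h for 1-cell/2-cell embryos, 64 h for 8-cell embryos, and 78 h for embryos of about 32 cells, called 32-cell here (all times approximate). At each stage there was 1 library from Col-0 x Cvi-0 crosses and 1 from Cvi-0 x Col-0 crosses, each from a pool of 20 embryos (a pool below is that library), and the parent named first is the mother by convention. No stage and cross combination had a second library, so the other cross serves as the repeat of a stage, and a mean ± SD below is over those 2 libraries. The labels name no mutant and no treatment.

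Polyamines are small, positively charged molecules that bind nucleic acids and membranes. Arabidopsis has no ornithine decarboxylase, so putrescine is made from arginine, beginning with the arginine decarboxylases ADC1 and ADC2. S-adenosylmethionine decarboxylases (SAMDC1, SAMDC2 and BUD2) make the aminopropyl donor. Spermidine synthases (SPDS1 and SPDS2) add an aminopropyl group to putrescine, and spermidine is then turned into spermine by SPMS or into its isomer thermospermine by ACL5. Plants without ACL5 are dwarfs with excess xylem, and embryos without both ADC genes or both SPDS genes do not survive.

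The libraries held 10299142 to 14805499 reads over genes and 1233554 to 1723728 allele reads, which are reads that overlap a variant and can be given to 1 accession. Summed levels of 7 embryo marker genes were 798 to 3963 RPM (gene reads scaled by the authors to each library's matched reads), and each was above 0 in every library. Those of 6 seed coat markers were 25.8 to 92.2 RPM, with TT8 at 0 in 1 library. Sums of 7 endosperm markers went from 43.9 and 52.0 RPM in 1-cell/2-cell embryos to 12.2 and 15.2 RPM in 32-cell embryos, with PHE1 and ZOU each at 0 in 4 libraries and FWA in 1. The 2 pollen and pollen tube markers, VGD1 and a LAT52-like gene, summed to 163 RPM in the Col-0 x Cvi-0 pool of 1-cell/2-cell embryos and to 0.751 to 25.4 RPM in the other 5, so stage comparisons are also given without that library where its omission changed a call. In these bulk samples fewer cells of a type and less RNA per cell cannot be told apart.

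ACL5 RNA was barely detected in 1-cell/2-cell embryos and was present in 8-cell and 32-cell embryos. ACL5 (AT5G19530) lies on the minus strand of chromosome 5, at 6588771 to 6591363 in TAIR10.1. Its deposited level was 0.157 RPM (2 reads) in the Col-0 x Cvi-0 pool and 0.0777 RPM (1 read) in the Cvi-0 x Col-0 pool of 1-cell/2-cell embryos. In 8-cell embryos it was 25.9 RPM (313 reads) and 31.3 RPM (464.5 reads), and in 32-cell embryos 35.5 RPM (577 reads) and 24.8 RPM (412.5 reads), in the same order of crosses. Both later stages lay far above the first, and the 8-cell and 32-cell libraries overlapped.

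The ratio of ACL5 reads, scaled to library size and pooled over both crosses, was 246 between the 1-cell/2-cell and 8-cell stages (95% counting interval 84 to 1197). Between the 8-cell and 32-cell stages it was 1.04 (0.947 to 1.15). That pooled value covered opposite directions: the ratio was 1.37 (1.19 to 1.58) with a Col-0 mother and 0.791 (0.691 to 0.905) with a Cvi-0 mother. All intervals in the text are computed from numbers of reads and take in counting error alone. Amplification copies molecules, so reads are not independent and the intervals may be too narrow. Those of ACL5 are a description. The plot of all 9 genes by library shows ACL5 and BUD2 at or near 0 at the first stage and the other 7 genes above 0 throughout.

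**Figure D1:**
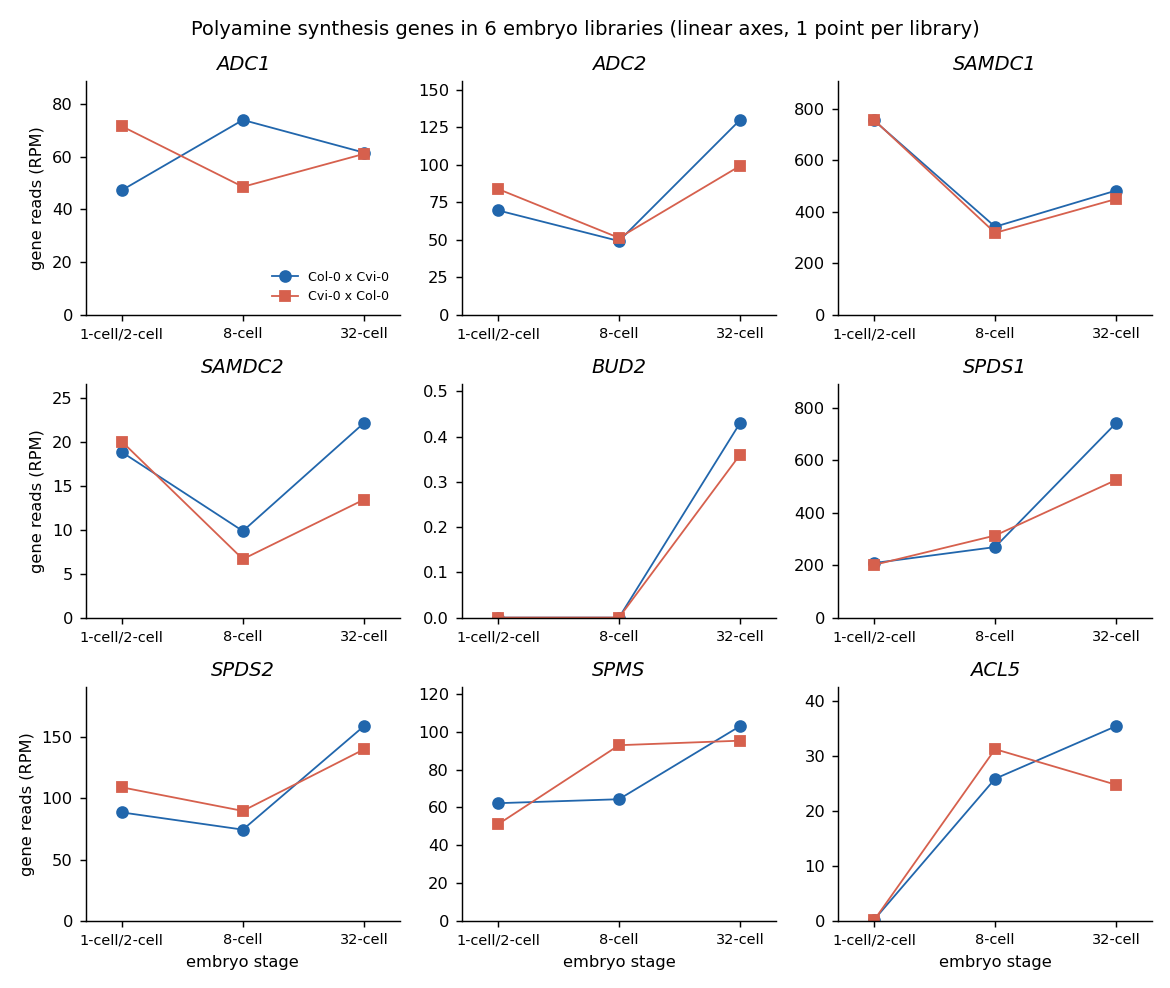
Gene reads in RPM (linear y axes, each starting at 0 and scaled to its gene) for the 9 genes at 3 embryo stages, with 1 point per library, circles for Col-0 x Cvi-0 and squares for Cvi-0 x Col-0. ACL5 goes from 0.0777 and 0.157 RPM to between 24.8 and 35.5 RPM, SPDS1 from 201 and 208 to 525 and 742 RPM, and SAMDC1 is lowest in 8-cell embryos.

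BUD2 (AT5G18930, chromosome 5, 6311725 to 6313372, minus strand), a further S-adenosylmethionine decarboxylase gene, was lower still. It had 0 reads in the 4 libraries of the earlier stages, and 7 reads (0.43 RPM) and 6 reads (0.36 RPM) in the 32-cell Col-0 x Cvi-0 and Cvi-0 x Col-0 libraries. Against a floor of 3 reads over the 4 earlier libraries this is at least 6.91-fold higher, and against the same floor over the 2 libraries of 1 stage at least 3.37-fold (1-cell/2-cell) and 3.55-fold (8-cell). BUD2 did not pass the filter on low counts and was not tested.

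The 250 bases before the annotated starts of ACL5 and BUD2 are shown because these were the genes with 3 or fewer reads at the first stage. They were read from the TAIR10.1 genome, on the minus strand, at chr5:6591364-6591613 and chr5:6313373-6313622. Capitals mark matches to TATAAA, searched on both strands.
ACL5: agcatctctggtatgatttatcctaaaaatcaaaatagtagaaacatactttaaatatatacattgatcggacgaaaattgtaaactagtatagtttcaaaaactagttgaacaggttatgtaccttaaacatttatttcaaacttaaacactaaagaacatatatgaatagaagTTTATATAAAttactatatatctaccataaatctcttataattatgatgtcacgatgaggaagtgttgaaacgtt
BUD2: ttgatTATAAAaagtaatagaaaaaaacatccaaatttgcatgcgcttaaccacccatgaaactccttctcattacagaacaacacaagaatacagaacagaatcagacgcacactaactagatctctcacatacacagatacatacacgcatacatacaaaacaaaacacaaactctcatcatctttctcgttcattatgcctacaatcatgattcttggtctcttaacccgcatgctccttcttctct
In ACL5 a match on each strand overlapped, with first bases 75 and 71 bases before the start, and in BUD2 the match began 245 bases before it. TATAAA occurred in 47.3% of 27443 windows of 250 bases before gene starts. TGTCTC, found in 10.9% of the windows, and TGTCGG, found in 4.16%, are letters of auxin response elements, and neither occurred in the 2 windows shown. The ACL5 window was 74.4% A and T and the BUD2 window 63.6%.

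The arginine decarboxylases make the first step and were present at every stage. ADC1 (AT2G16500, chromosome 2, 7150514 to 7153430, minus strand) was at 47.2 and 71.5 RPM in 1-cell/2-cell embryos, 73.9 and 48.5 RPM in 8-cell embryos and 61.5 and 61.0 RPM in 32-cell embryos, with Col-0 x Cvi-0 first. The stages overlapped, and the higher cross was not the same at the first and the second stage. ADC2 (AT4G34710, chromosome 4, 16560030 to 16563044, minus strand) was at 69.6 and 83.9, then 49.1 and 51.2, then 130 and 99.3 RPM. Its 32-cell libraries were above all the others and its 8-cell libraries below all the others.

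Of the 2 arginine decarboxylase genes, ADC2 is the one known to be induced by stress. ADC2 took 59.6% and 54.0% of the reads of the pair in 1-cell/2-cell embryos, 39.9% and 51.3% in 8-cell embryos and 68.0% and 61.9% in 32-cell embryos. The change of ADC2 between 8-cell and 32-cell embryos was 1.18 ± 0.32 (log2 ± SE) and did not pass edgeR's quasi-likelihood test over all genes (adjusted p = 0.242). From the first to the last stage it was 0.71 ± 0.32 (adjusted p = 0.2). ADC1 had log2 values of 0.19 ± 0.39, -0.03 ± 0.38 and 0.16 ± 0.38 in the comparisons of 8-cell with 1-cell/2-cell, 32-cell with 8-cell and 32-cell with 1-cell/2-cell embryos (adjusted p = 0.889, 0.984 and 0.821), and its sign turned in each of them when single libraries were left out.

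SAMDC1 supplied most of the joint reads of SAMDC1, SAMDC2 and BUD2. SAMDC1 (AT3G02470, chromosome 3, 508886 to 511561, plus strand) was at 756 and 758 RPM in 1-cell/2-cell embryos, 342 and 318 RPM in 8-cell embryos, and 483 and 450 RPM in 32-cell embryos. The crosses lay close together and the stages did not overlap. Its paralog SAMDC2 (AT5G15950, chromosome 5, 5205869 to 5208036, plus strand) was at 18.8 and 20, then 9.83 and 6.64, then 22.1 and 13.4 RPM, also with both 8-cell libraries lowest. SAMDC1 made up 95.6% to 98.0% of the reads of this pair in every library.

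The log2 value of SAMDC1 at the 8-cell against the 1-cell/2-cell stage was -1.04 ± 0.26 (edgeR, adjusted p = 0.146), and that of SAMDC2 was -1.13 ± 0.41 (adjusted p = 0.307). Neither passed the threshold of 0.05. SAMDC1 passed without the Col-0 x Cvi-0 pool of 1-cell/2-cell embryos, the one with the highest pollen markers (-1.22 ± 0.27, adjusted p = 0.0436), and also in DESeq2 (adjusted p = 0.00384) and with scaling by the library total alone (adjusted p = 0.0374). The part of pollen RNA in this value was not tested. Between 1-cell/2-cell and 32-cell embryos the values were -0.56 ± 0.26 for SAMDC1 (adjusted p = 0.213) and -0.06 ± 0.41 for SAMDC2 (adjusted p = 0.943).

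SPDS1 rose over these stages and was the only one of the 7 tested enzymes other than ACL5 to pass the test. SPDS1 (AT1G23820, chromosome 1, 8420265 to 8422985, plus strand) was at 208 and 201 RPM in 1-cell/2-cell embryos, 269 and 313 RPM in 8-cell embryos, and 742 and 525 RPM in 32-cell embryos. The stages did not overlap. Its log2 change from the first to the last stage was 1.76 ± 0.30 (edgeR, adjusted p = 0.0163), in the same direction in both crosses. Without the Col-0 x Cvi-0 pool of 32-cell embryos, the higher of its stage, it was 1.41 ± 0.49 (adjusted p = 0.088) and no longer passed. Between 8-cell and 32-cell embryos the value was 1.10 ± 0.29 (adjusted p = 0.238).

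The second spermidine synthase gene did not pass the test in any stage comparison. SPDS2 (AT1G70310, chromosome 1, 26485238 to 26487595, minus strand) was at 88.5 and 109 RPM, then 74.4 and 89.7 RPM, then 159 and 140 RPM. The 32-cell libraries were the highest and the earlier stages overlapped. Its log2 value from the first to the last stage was 0.74 ± 0.30 (adjusted p = 0.163). SPDS1 took 70.2% and 64.8% of the reads of the pair in 1-cell/2-cell embryos, 78.3% and 77.7% in 8-cell embryos, and 82.3% and 79.0% in 32-cell embryos. The difference between the changes of SPDS1 and SPDS2 was not tested.

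SPMS, the spermine synthase gene (AT5G53120, chromosome 5, 21534473 to 21537816, plus strand; SPDS3 in the annotation), had reads in every library. It was at 62.2 and 51.0 RPM in 1-cell/2-cell embryos, 64.3 and 92.9 RPM in 8-cell embryos, and 103 and 95.3 RPM in 32-cell embryos. Every 8-cell library was above both 1-cell/2-cell libraries and every 32-cell library above both 8-cell libraries. Its log2 value from the first to the last stage was 0.96 ± 0.30 (edgeR, adjusted p = 0.0917; DESeq2, adjusted p = 0.0221). SPMS and ACL5 use the same substrate. SPMS held 99.7% and 99.8% of their joint reads in 1-cell/2-cell embryos, 71.3% and 74.8% in 8-cell embryos, and 74.3% and 79.4% in 32-cell embryos.

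**Figure D2:**
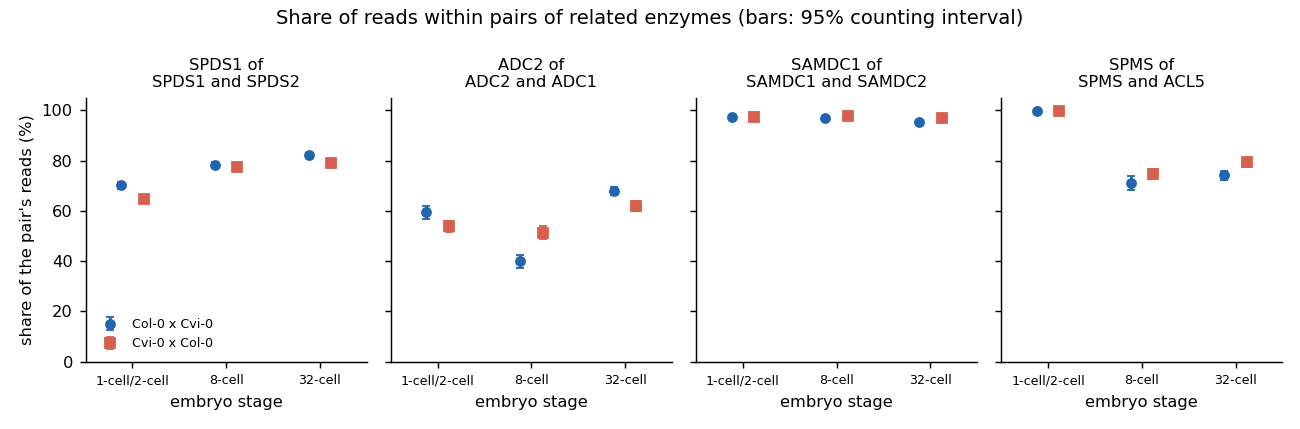
Share (percent) of the reads of a pair of related enzyme genes that came from the first gene, at 3 embryo stages, with 1 point per library and 95% counting intervals, circles for Col-0 x Cvi-0 and squares for Cvi-0 x Col-0. SPMS goes from 99.7% and 99.8% to between 71.3% and 79.4%, SPDS1 goes from 64.8% and 70.2% to 79.0% and 82.3%, and SAMDC1 stays at 95.6% or more.

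Between the 1-cell/2-cell and 8-cell stages edgeR called 0 of the 7 tested genes other than ACL5, against 1.1% of all 17478 genes. At an unadjusted p under 0.05 there were 2 of the 7, beside 2267 of all genes. DESeq2 called 1 (SAMDC1), beside 814 of all genes. Between the 8-cell and 32-cell stages edgeR called 0 of 7, against 0% of all genes. There 4 of the 7 had an unadjusted p under 0.05, beside 2064 of all genes. DESeq2 called 2 (SPDS1 and ADC2), beside 647 of all genes. Without the Col-0 x Cvi-0 pool of 1-cell/2-cell embryos, which enters that comparison through the cross term and the shared spread, SPDS1 (adjusted p = 0.0323) and ADC2 (adjusted p = 0.0447) passed there, and without the other library of that stage SPDS1 passed (adjusted p = 0.0419). From the first to the last stage 1 of 7 rose, where 7.78% of all genes were called (4.18% rose and 3.6% fell). The median log2 values of the 7 were -0.12, 0.86 and 0.71 in these comparisons, beside 0.01, 0.01 and 0.00 for all genes. All these comparisons share libraries. Between the crosses 0 of 7 were called, against 0.00572% of all genes. At an unadjusted p under 0.05 there were 0 of 7 and in DESeq2 0, beside 992 and 49 of all genes.

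Per kilobase of exon, SAMDC1 and SPDS1 headed the order at every stage and BUD2 ended it. In 1-cell/2-cell embryos mean levels in RPM per kb were 362 for SAMDC1, 145 for SPDS1, 64.8 for SPDS2, 28.6 for SPMS, 25.5 for ADC2, 20.4 for ADC1, 9.44 for SAMDC2 and 0.0692 for ACL5. In 8-cell embryos SPDS1 stood at 206 and SAMDC1 at 158, followed by SPDS2 (53.8), SPMS (39.8), ADC1 (21.0), ACL5 (16.8), ADC2 (16.6) and SAMDC2 (4.01). In 32-cell embryos the order was SPDS1 (448), SAMDC1 (223), SPDS2 (98.1), SPMS (50.1), ADC2 (38.1), ADC1 (21.0), ACL5 (17.7), SAMDC2 (8.63) and BUD2 (0.24). Neighbours whose library values overlapped were SPMS, ADC2 and ADC1 at the first stage, ADC1, ACL5 and ADC2 at the second, and ADC1 (21.1 and 20.9) and ACL5 (20.9 and 14.6) met at the third.

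Close paralogs share stretches of coding sequence, and the authors kept unique matches only, so reads from such stretches may be missing from both genes. The coding sequences of SPDS1 and SPDS2 were identical at 85.4% of aligned bases, those of ADC1 and ADC2 at 83.0%, those of SAMDC1 and SAMDC2 at 79.3% and those of SPMS and ACL5 at 62.6%. The longest runs shared without a mismatch are shown as a measure of how far these genes can be told apart by short reads. They were read from the TAIR10.1 coding sequences.
SPDS1 and SPDS2, 38 bases: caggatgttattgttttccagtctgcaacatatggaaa
ADC1 and ADC2, 40 bases: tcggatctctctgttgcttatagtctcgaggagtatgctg
SAMDC1 and SAMDC2, 30 bases: cttctctgaagaagtctctgttcttgatgg
SPMS and ACL5, 14 bases: ggaaaggtgcttgt
The levels and shares of the 3 closer pairs are uncertain to this extent, and read length is not given in the sources used here.

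Allele reads were enough for a test in 5 of the 9 genes. SPDS1 and SPDS2 had 6 allele reads each over the 6 libraries, SAMDC2 had 8 and BUD2 had 0. Over all genes the Col-0 share was between 52.93% and 54% in each library. Reads of ACL5 came mostly from the Cvi-0 allele whichever accession was the mother. In 8-cell embryos its Col-0 share was 8.7% (4 of 46 reads; 95% Clopper-Pearson interval 2.42 to 20.8) with a Col-0 mother and 35.1% (20 of 57; 22.9 to 48.9) with a Cvi-0 mother. In 32-cell embryos it was 25.0% (5 of 20; 8.66 to 49.1) and 42.6% (26 of 61; 30 to 55.9).

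Cvi-0 reads of ACL5 thus outnumbered Col-0 reads in each of the 4 libraries with allele reads. Because ACL5 was selected on its values, its intervals describe counting error and are no test against 50%. Pooled, 55 of 184 reads were from Col-0 (29.9%; 23.4 to 37.1). Set by parent, the maternal share was 13.6% (6.43 to 24.3) with a Col-0 mother and 61.0% (51.6 to 69.9) with a Cvi-0 mother. A single variant carried 96.2% of these reads. In 1-cell/2-cell embryos ACL5 had 0 allele reads in both libraries, so its parental origin there was not measurable.

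**Figure D3:**
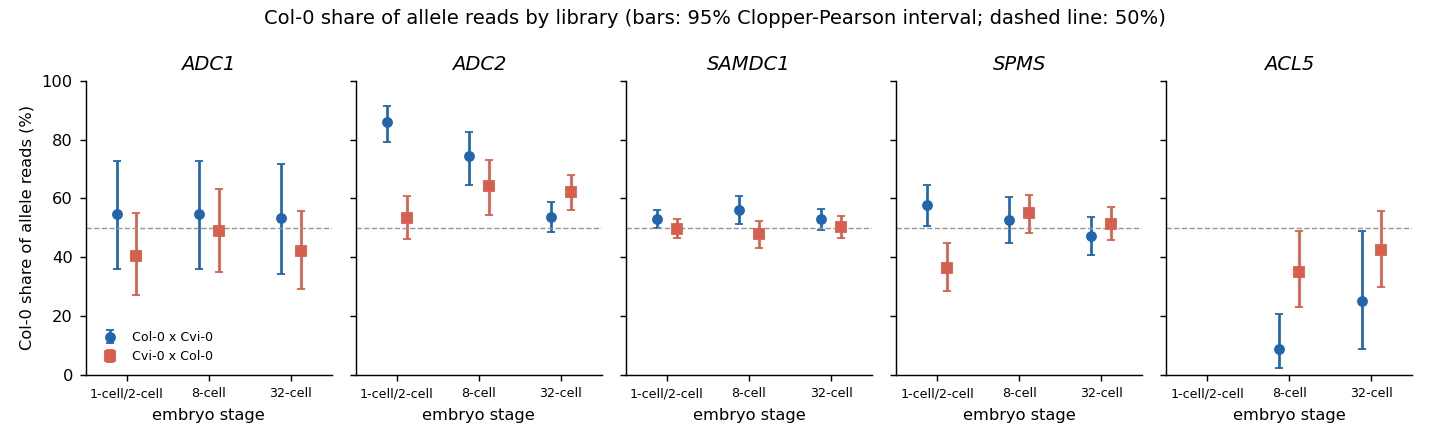
Col-0 share of allele reads (percent) for the 5 genes with enough allele reads, at 3 embryo stages, with 1 point per library and 95% Clopper-Pearson intervals, circles for Col-0 x Cvi-0 and squares for Cvi-0 x Col-0, and a dashed line at 50%. ACL5 points lie between 8.7% and 42.6%, SAMDC1 points between 47.8% and 56.2%, and ADC2 reaches 86.1% in the Col-0 x Cvi-0 pool of 1-cell/2-cell embryos.

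SAMDC1 gave the most precise shares. Its maternal share was 52.9% and 50.3% in 1-cell/2-cell embryos, 56.2% and 52.2% in 8-cell embryos, and 52.9% and 49.6% in 32-cell embryos, with Col-0 x Cvi-0 first. Over all libraries 2248 reads were maternal and 2076 paternal (52.0%; 50.5 to 53.5). The fitted log2 ratio of maternal to paternal reads was 0.13 ± 0.10 (edgeR, adjusted p = 1). ADC1 had 140 maternal and 112 paternal reads (55.6%; 49.2 to 61.8), and its shares in single libraries ran from 51.0% to 59.6%, with every interval including 50%.

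SPMS had more maternal than paternal reads in 1-cell/2-cell embryos and shares near 50% later, with intervals that included 50%. Its maternal share was 57.8% (50.6 to 64.7) and 63.6% (55 to 71.5) at that stage, 52.7% and 45.1% in 8-cell embryos, and 47.2% and 48.6% in 32-cell embryos. Over all stages the log2 ratio was 0.13 ± 0.18 (adjusted p = 1). A change of the share between stages was not tested. In the Col-0 x Cvi-0 pool of 1-cell/2-cell embryos the maternal excess was not shared by all variants, as given below. Of the 4 tested genes other than ACL5, 0 were called for the parent of the allele, against 0.129% of all 6988 genes. At an unadjusted p under 0.05 there were 0 of the 4 and in DESeq2 0, beside 301 and 22 of all genes.

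ADC2 was called for the accession of the allele, and this call rested on 1 variant. Over all libraries its Col-0 allele had 734 reads and its Cvi-0 allele 449 (62.0%; 59.2 to 64.8), and the log2 ratio was 0.96 ± 0.26 (edgeR, adjusted p = 0.0201). It was 1 of 4 genes tested besides ACL5, where 20.5% of all genes were called, with 13.7% of all genes on the Col-0 side and 6.81% on the Cvi-0 side. When TMM scaling was applied to the allele columns, the numbers of all genes called were 794 and 653 in place of 954 and 476. Variant 2 of ADC2, numbered by its rank in reads, gave 365 Col-0 and 7 Cvi-0 reads (98.1%; 96.2 to 99.2), and had a Col-0 majority in all 6 libraries.

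The other variants of ADC2 together gave 369 Col-0 and 442 Cvi-0 reads (45.5%; 42 to 49). With the most read variant alone, the fitted log2 ratio was -0.25 ± 0.25 (adjusted p = 0.523), so the direction turned. The call was also lost without the Col-0 x Cvi-0 pool of 1-cell/2-cell embryos (0.68, adjusted p = 0.0588), without the Col-0 x Cvi-0 pool of 8-cell embryos (0.90, adjusted p = 0.052), without the Cvi-0 x Col-0 pool of 8-cell embryos (0.91, adjusted p = 0.0678) and without the Cvi-0 x Col-0 pool of 32-cell embryos (0.93, adjusted p = 0.0736).

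Without variant 2, ADC2 reads of the youngest embryos were mostly maternal in both crosses. The maternal share was 73.2% (52 of 71 reads; 61.4 to 83.1) and 70.5% (86 of 122; 61.6 to 78.4) in 1-cell/2-cell embryos, 55.8% (41.3 to 69.5) and 58.5% (45.6 to 70.6) in 8-cell embryos, and 48.1% (42.6 to 53.6) and 61.6% (53.7 to 69.1) in 32-cell embryos. This tally was chosen after the reads of each variant were seen and has no test. It still holds variant 7, with 16 Col-0 and 0 Cvi-0 reads. Of the maternal reads of the Col-0 x Cvi-0 pool of 1-cell/2-cell embryos, 6 were from that variant. With variant 2 included, the maternal share was 86.1% and 46.6% in 1-cell/2-cell embryos, 74.5% and 35.8% in 8-cell embryos, and 53.7% and 37.9% in 32-cell embryos, so that it lay below 50% in every library with a Cvi-0 mother. The fitted log2 ratio of maternal to paternal ADC2 reads, with all variants, was 0.38 ± 0.26 (edgeR, adjusted p = 1). Seed coat markers, from a maternal tissue, summed to 33.3 and 31.6 RPM in the 1-cell/2-cell libraries and to 25.8 to 92.2 RPM over all 6, and their part in these shares was not tested.

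SPMS had a similar variant with fewer reads. Its variant 5 gave 64 Col-0 and 5 Cvi-0 reads (92.8%; 83.9 to 97.6), with a Col-0 majority in all 6 libraries, whereas its variant 2 gave 134 and 238 (36.0%; 31.1 to 41.1). Without variant 5 the Col-0 share of SPMS was 48.4%, beside 50.8% with it, and the 1-cell/2-cell maternal shares were 56.5% and 65.7%. In the Col-0 x Cvi-0 pool of 1-cell/2-cell embryos, variant 1 gave 61 maternal and 23 paternal reads. Variants 2 (32 and 42) and 3 (12 and 17) gave more paternal reads there, and variants 4 (4 and 2) and 5 (6 and 0) more maternal reads. In the Cvi-0 x Col-0 pool variants 1 (39 and 25), 2 (38 and 14) and 3 (10 and 6) gave more maternal reads. Variant 4 gave as many of each there and variant 5 more paternal reads (1 and 5).

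**Figure D4:**
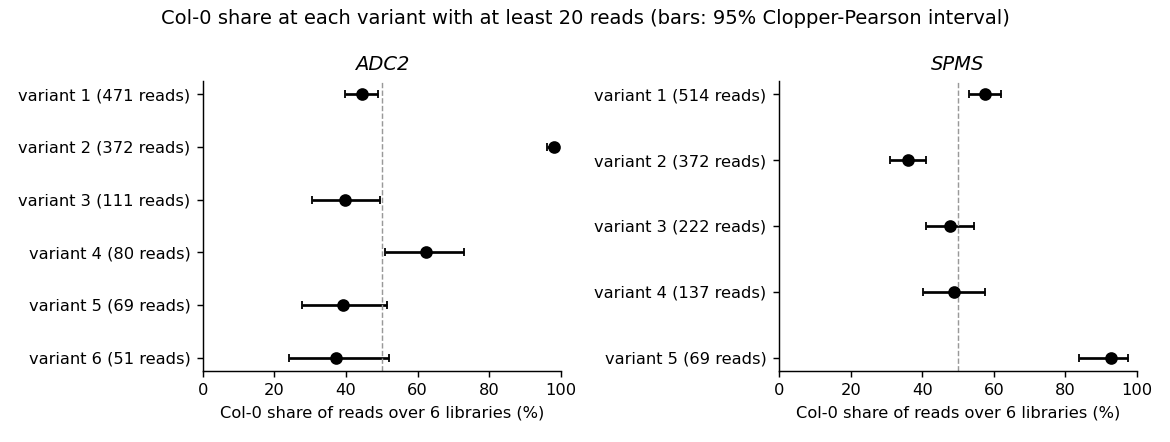
Col-0 share of reads (percent, pooled over 6 libraries) at each variant with at least 20 reads in ADC2 and SPMS, with 95% Clopper-Pearson intervals and a dashed line at 50%. Variant 2 of ADC2 (98.1%) and variant 5 of SPMS (92.8%) stand apart from the other variants shown, which lie between 36.0% and 62.5%.

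The list of other genes of polyamine metabolism held transporters, oxidases, acyltransferases, arginases, S-adenosylmethionine synthetases and enzymes from agmatine to putrescine. It also held the decarboxylase paralog SAMDC3, genes of methylthioadenosine recycling and the hypusine route with its eIF5A genes. This list, too, was drawn up with earlier results of these data known. Of its 37 members 32 were in the tables and 26 were tested. Between 1-cell/2-cell and 32-cell embryos 1 rose and 2 fell, which is 11.5% of those tested where 7.78% of all genes were called (4.18% rose and 3.6% fell), and the median log2 value was 0.23, beside 0.00 for all genes. PUT2, a polyamine uptake transporter gene (AT1G31830), was at 11.5 and 8.55 RPM at the first stage and at 36.8 and 39.1 RPM at the last (log2 2.07 ± 0.32, edgeR, adjusted p = 0.0114). ELF5A-1 (AT1G13950) encodes eIF5A, the protein whose hypusine residue is made from spermidine. It went from 30.2 and 48.2 RPM to 4.21 and 2.73 RPM (-3.51 ± 0.67, adjusted p = 0.0234). Its paralogs ELF5A-2, which went from 1753 and 1650 RPM to 2254 and 1666 RPM (0.32 ± 0.28, adjusted p = 0.508), and ELF5A-3, from 44.4 and 50.7 RPM to 59.7 and 68.5 RPM (0.57 ± 0.28, adjusted p = 0.238), did not pass, and ELF5A-2 held most of the reads of these 3 genes. The copper amine oxidase gene AT2G42490 went from 38.5 and 50.7 RPM to 10 and 18.9 RPM (-1.53 ± 0.33, adjusted p = 0.0337).

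Of these 3 calls, that of AT2G42490 was lost without the Col-0 x Cvi-0 pool of 1-cell/2-cell embryos, the one with the highest pollen markers, without the other 1-cell/2-cell library and without the Col-0 x Cvi-0 pool of 32-cell embryos. PUT2 and ELF5A-1 passed whichever library was left out. Without the Cvi-0 x Col-0 pool of either 1-cell/2-cell or 32-cell embryos, more genes of this list were called in that comparison, with 28 tested. Calls over all genes were not counted for fits with 1 library left out. Between the 1-cell/2-cell and 8-cell stages 0 of 26 were called, against 1.1% of all genes. At an unadjusted p under 0.05 there were 5 and in DESeq2 1, beside 2267 and 814 of all 17478 genes. There ELF5A-1 was called as lower without the Col-0 x Cvi-0 pool of 1-cell/2-cell embryos, and ELF5A-1 as lower and PUT2 as higher without either of the 32-cell libraries. Between the 8-cell and 32-cell stages 0 were called, against 0% of all genes, and this count rose without the Cvi-0 x Col-0 pool of 32-cell embryos. At an unadjusted p under 0.05 there was 1 and in DESeq2 0, beside 2064 and 647 of all 17478 genes. The intermediate steps from agmatine to putrescine are made by agmatine iminohydrolase (AIH) and by NLP1, an amidohydrolase. AIH was at 31.9 ± 9.42, 30.3 ± 6.73 and 25.0 ± 1.65 RPM (SD, n = 2) over the stages, and NLP1 at 41.9 ± 2.78, 45.4 ± 5.39 and 49.4 ± 6.53 RPM, and neither passed the test in any stage comparison. PAO5, which oxidises thermospermine, was between 0 and 0.944 RPM in all libraries. SAMDC3 had no row in the deposited tables.

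The thermospermine circuit list holds genes known to act with ACL5 in the making of vascular cells, and 15 of its 16 members were tested. Between 1-cell/2-cell and 32-cell embryos 9 rose and 1 fell, where 4.18% of all genes rose and 3.6% fell, with a median log2 value of 1.85 (also with LOG3, at 0 reads early, set at its bound) beside 0.00 for all genes. The list was drawn up with earlier results of these data known, so its counts beside those of all genes are a description. Several of the listed genes are also known as regulators of embryo patterning, and MP is among the embryo markers above. MP, the auxin response factor, was at 34.7 and 34.8 RPM at the first stage and at 148 and 155 RPM at the last (2.26 ± 0.29, edgeR, adjusted p = 0.00685). The class III homeodomain-leucine zipper genes PHB (1.88 ± 0.28, adjusted p = 0.0111), PHV (3.45 ± 0.67, adjusted p = 0.0247), CNA (1.85 ± 0.39, adjusted p = 0.0309) and REV (1.72 ± 0.38, adjusted p = 0.0373) rose.

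ATHB8, a gene of the same class whose product is known to activate ACL5, was at 0 and 0.194 RPM in 1-cell/2-cell embryos, 5.12 and 7.92 RPM in 8-cell embryos, and 2.83 and 2.55 RPM in 32-cell embryos (adjusted p = 0.0406 for the last against the first stage). TMO5, a bHLH gene of xylem formation, was at 0.236 and 0.155 RPM at first and at 4.92 and 10.3 RPM in 32-cell embryos (adjusted p = 0.0231). Its paralog T5L1 fell from 49.1 and 42.7 to 7.68 and 13.9 RPM (-2.04 ± 0.37, adjusted p = 0.0211). SACL3 rose (2.11 ± 0.43, adjusted p = 0.0288). LHW, which encodes the dimer partner of TMO5, was just under the threshold (1.23 ± 0.30, adjusted p = 0.0498). Its call was lost whichever library was left out, and with scaling by the library total alone. Which of the other calls were lost without single libraries is given below.

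SAC51, whose translation is known to be raised by thermospermine, was at 6.04 ± 0.523, 3.23 ± 3.16 and 6.11 ± 1.68 RPM (SD, n = 2) over the stages and passed no stage test. At the 8-cell against the 1-cell/2-cell stage 1 of the 15 genes was called, REV (2.54 ± 0.39, adjusted p = 0.0288), against 1.1% of all genes. DESeq2 called 8 of the 15, and 814 of all 17478 genes. With 1 library left out, the number edgeR called there moved both ways, and calls over all genes were not counted for those fits. From the first to the last stage the calls of ATHB8, PHV, T5L1 and LHW were lost without the Col-0 x Cvi-0 pool of 1-cell/2-cell embryos, which had the highest pollen markers. Without the Col-0 x Cvi-0 pool of 32-cell embryos these and CNA were lost. ATHB8 was also lost without either 8-cell library. REV was lost without either Cvi-0 x Col-0 pool of the first and last stages, and CNA without that of the first. MP, PHB, SACL3 and TMO5 passed whichever library was left out. Between the 8-cell and 32-cell stages edgeR called 0, against 0% of all genes. At an unadjusted p under 0.05 there were 3 and in DESeq2 0, beside 2064 and 647 of all 17478 genes. Summed embryo markers were higher at the last stage than at the first, with most of the sum from PDF1 (97.4 and 79.8 RPM, then 3179 and 2227 RPM). KNOLLE and MP were also higher in both 32-cell libraries and LEC1 overlapped, whereas WOX2, WOX8 (49.2 and 72.3 RPM, then 10.4 and 28.6 RPM) and ATML1 (324 and 394 RPM, then 140 and 198 RPM) were lower in both 32-cell libraries. Summed endosperm markers were lower at the last stage, with most of the early sum from SUC5 (44.8 and 40.9 RPM, then 2.15 and 8.47 RPM), whereas ALE1 (0.0787 and 0.078 RPM, then 5.04 and 2.01 RPM) and ZOU (0 in both, then 0.859 and 0.24 RPM) were higher. The part of these markers' cell types in the changes was not tested.

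**Figure D5:**
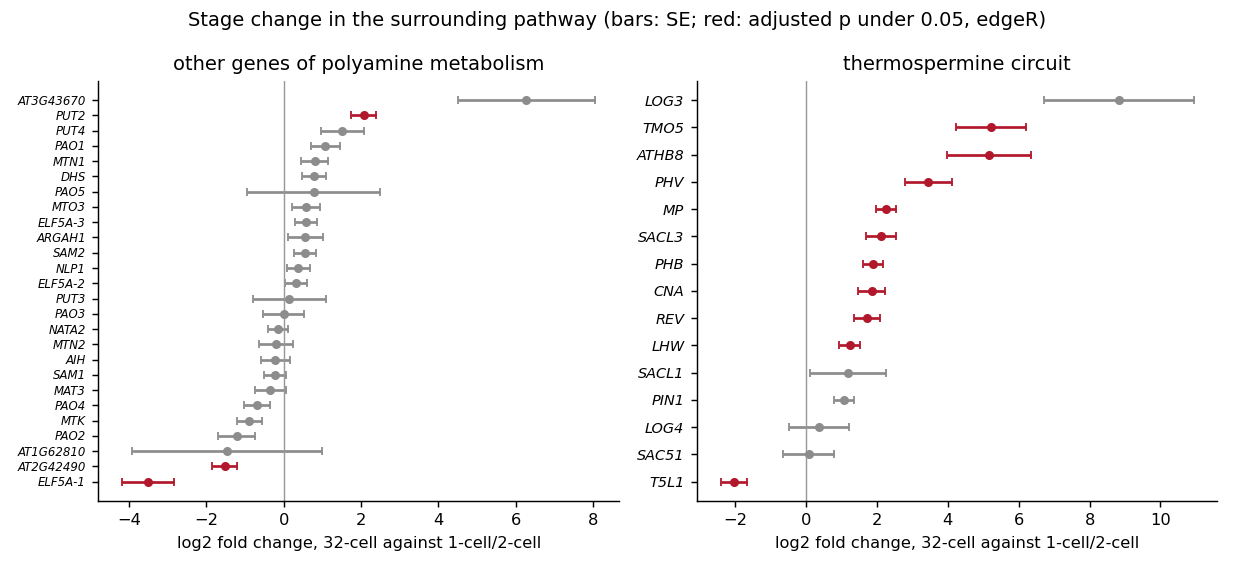
Log2 fold change between 1-cell/2-cell and 32-cell embryos (x axis, points with SE, edgeR) for the tested genes of polyamine metabolism (left, 26 genes) and of the thermospermine circuit (right, 15 genes), with red for an adjusted p under 0.05. On the left 1 gene is red above 0 and 2 below, and on the right 9 above and 1 below. LOG3 had 0 reads at the first stage, so its fitted value depends on the model.

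Genes whose levels over the 6 libraries were most like those of ACL5 were ranked by Pearson's r of log2(RPM + 1) among 16257 genes with a mean of at least 1 RPM, as a description. The 5 nearest were AT4G15053 (0.996), AT3G56770 (0.995), ZPR3 (0.993), AT5G62960 (0.991) and AT2G25185 (0.991). AT4G15053 was at 0 and 0.0777 RPM in 1-cell/2-cell embryos, 4.71 and 4.05 RPM in 8-cell embryos and 4.92 and 3.96 RPM in 32-cell embryos. ZPR3, a small leucine zipper protein gene, was at 0.0787 and 0, then 4.79 and 5.80, then 7.68 and 6.97 RPM. In all, 177 genes had an r above 0.95, and with a pseudocount of 0.1 RPM only 1 of the 5 nearest, ZPR3, was again among the first 5. These 6 points, low at the first stage and higher later, give a description only.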

How the data were processed

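Embryo poly(A) RNA was amplified linearly and sequenced with the strand kept, per the labels' protocols. Per the series' design text and the submitters' processing notes, the authors mapped reads with Bowtie to TAIR10 and to a version carrying Cvi-0 variants, and kept perfect, unique matches. Neither a Bowtie version nor a counting tool is given in the sources used here. Perfect matching loses reads that carry an unlisted variant.

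Per the file headers, the authors deposited estimated counts of gene reads (in steps of 0.5), counts of allele reads, RPM (gene reads scaled to the reads matching the genome and transcript models) and, as other text, lists of reads per variant. Left unused were 30 columns that repeat these libraries in other forms. An empty entry was read as 0.

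Gene reads were rounded and tested in edgeR 4.0.16 (R 4.3.3) with stage and cross as terms, after filterByExpr and TMM scaling (0.855 to 1.11). Allele counts were fitted with library, accession and parent where a gene averaged 10 or more of them per library. P-values were adjusted by Benjamini-Hochberg over all genes tested (threshold 0.05). Residual degrees of freedom were 2 and 4, and the biological coefficients of variation 42.9% and 30.9%. A p-value measures the spread between these libraries, which have no replicate of the same stage and cross. Alternatives included DESeq2 1.42.0. Both fits were tested on simulated data.

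Members and lists were chosen with earlier results of these data known. The text names all members, the genes of 2 further lists that passed a stage test (at most 8 a list), SAMDC3, AIH, NLP1, PAO5, SAC51 and ATHB8, and the 5 patterns nearest to ACL5. LHW, ELF5A-2 and ELF5A-3, outside that rule, were named after their values were seen. Genes were matched to TAIR10.1 by locus identifier (23747 of 23874).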

Additional observations from a re-analysis of the deposited data

Results flagged for a closer look

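Stage changes of the 9 pathway genes, of the genes named from the 2 further lists and of the 5 patterns nearest to ACL5 (33 genes together) were compared between the 2 crosses. Those of ADC1, AIH and ELF5A-2 given here went opposite ways, each with a 95% counting interval that leaves out 0. With 1 library per stage and cross the difference between the crosses was not tested, and counting intervals leave out the spread between embryo pools. Values are log2 changes of reads scaled to library size, without TMM scaling.

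ADC1 went opposite ways in all 3 stage comparisons on this scaling. These share libraries, and the change from the first to the last stage follows from the others. Between 1-cell/2-cell and 8-cell embryos the change was 0.65 (0.50 to 0.80) with a Col-0 mother and -0.56 (-0.70 to -0.42) with a Cvi-0 mother, a difference of 1.21. Between 8-cell and 32-cell embryos it was -0.27 (-0.40 to -0.14) and 0.33 (0.19 to 0.47), a difference of -0.60. From the first to the last stage it was 0.38 (0.23 to 0.53) and -0.23 (-0.36 to -0.10), a difference of 0.61. AIH, which acts on the product of ADC1, had 0.47 (0.26 to 0.69) and -0.60 (-0.79 to -0.40) between 1-cell/2-cell and 8-cell embryos, a difference of 1.07. ELF5A-2 had 0.17 (0.15 to 0.20) and -0.14 (-0.17 to -0.11) in that comparison, a difference of 0.31. Scaled by library total alone, the median log2 of all genes was -0.18 in that comparison and -0.23 from the first to the last stage. With a Cvi-0 mother, ELF5A-2 (-0.14) and ADC1 from the first to the last stage (-0.23) lay at or above these medians. Whether these values keep their direction with TMM scaling was not tested.

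ACL5, with 0.46 and -0.34 between 8-cell and 32-cell embryos, a difference of 0.80, was selected on its values, so these are a description and no test. AT5G62960, with 0.35 and -0.38 in the same comparison, a difference of 0.74, was selected for its likeness to ACL5 over these libraries, and its values are likewise a description.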

How the results depend on the processing

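The counts below leave out ACL5. DESeq2 called 1, 2 and 2 of the 7 pathway genes (8-cell against 1-cell/2-cell, 32-cell against 8-cell, 32-cell against 1-cell/2-cell), 1 other gene of polyamine metabolism in the first comparison, and 8 genes of the thermospermine circuit there, in place of 0, 0, 1, 0 and 1. Scaling by the library total alone, which moved the median log2 of all genes to -0.18 (8-cell against 1-cell/2-cell) and -0.23 (32-cell against 1-cell/2-cell), gave 1 and 2 pathway genes and 0 and 6 circuit genes in these comparisons. The numbers of all genes called from the first to the last stage were then 543 higher and 744 lower, in place of 730 and 630. DESeq2 called 814, 647 and 3006 of all genes in the 3 stage comparisons, edgeR 192, 0 and 1360. No filter on low counts gave 1 gene of polyamine metabolism and 6 of the circuit at 8-cell against 1-cell/2-cell, and a fit without the cross as a block (no replicate block) gave 1 and 3. The labels give no replicate numbers, so the cross was the only block. Leaving out 1 library at a time gave 0 to 1, 0 to 2 and 0 to 1 pathway genes in the 3 stage comparisons, 0 to 2, 0 to 2 and 2 to 5 genes of polyamine metabolism, 0 to 7 and 5 to 9 circuit genes in the first and last, and 0 to 1 genes called for the accession. With the most read variant alone that count was 0, the Col-0 share of ADC2 was 44.4% and that of SPMS 57.6%. The tally of ADC2 without variant 2, an alternative chosen after seeing the data, gave 45.5%. With a pseudocount of 0.1 RPM, 1 of the 5 patterns nearest to ACL5 was kept. The order of levels per length was the same with the longest transcript as the length. The counts with 1 library left out have no share over all genes beside them. In those fits 26 or 28 genes of polyamine metabolism were tested. The cause of the differences between settings was not tested.

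Of 137 log2 values of members under other settings 125 kept their direction and side of the threshold, 6 newly passed and 6 turned. Those that turned were ADC1 from the first to the last stage with the library total alone (-0.04), SAMDC2 from the first to the last stage without the cross block (0.04), SPMS (-0.11) and SAMDC1 (-0.02) for the accession with TMM scaling of the allele columns, and, with the most read variant alone, ADC2 for the accession (-0.25) and SPMS for the parent (-0.03). With 1 library left out, 14 of 174 turned. ADC1 ranged from -0.37 to 0.81, from -0.50 to 0.55 and from -0.36 to 0.82 in the 3 stage comparisons. SPDS2 ranged from -0.36 to 0.17 at 8-cell against 1-cell/2-cell, SAMDC2 from -0.54 to 0.48 at 32-cell against 1-cell/2-cell, SPMS from -0.02 to 0.24 for the parent and from -0.09 to 0.16 for the accession, and ADC2 from 0.68 to 1.33 for the accession. Allele values of SPDS1, SPDS2, SAMDC2 and BUD2 are limited by few reads at variants (at most 8 each, also for SPDS1 and SPDS2 with their many gene reads), and all values of BUD2 by depth.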
